A study of Homo sapiens with 6 samples.

Results

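SLC7A5 and SLC3A2 encode the 2 chains of the transporter that carries large neutral amino acids into cells, and the ATAC-seq peaks around both genes were compared between ATF4 knockdown and control KMS-11 cells. KMS-11 is an established human line of plasma cell myeloma, a cancer of antibody-secreting cells. ATF4, a transcription factor, acts when amino acids run short, and the series maps accessible chromatin after its knockdown. The knockdown group held 3 biological replicates with the treatment label LentiV2_ATF4g3, a lentiviral vector with a guide against ATF4, and the control group 3 with the label LentiV2. The genotype label was WT in both groups, both carry the vector label, and the 3 knockdown libraries bear 1 guide label, so its effect was not compared with that of another guide. ATAC-seq marks open DNA with the Tn5 transposase, and the deposited data were 1 list of peaks per library. Overlapping peaks of the 6 lists were merged into 378213 regions, and those within 100 kb of either gene body on hg38 were taken, 122 regions in all. Of these, 83 lay around SLC7A5 (chromosome 16, 87830023 to 87869507, minus strand) and 39 around SLC3A2 (chromosome 11, 62856109 to 62888860, plus strand). Both genes were chosen with their peak differences between the groups known. The comparisons of their peak height, width, presence and covered length below are therefore descriptions without a test.

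SLC7A5 encodes LAT1, the light chain, which exchanges leucine and other large neutral amino acids for intracellular amino acids such as glutamine. SLC3A2 encodes 4F2hc, also called CD98, the heavy chain, which is joined to LAT1 by a disulfide bond and brings it to the cell surface. Leucine that enters this way is sensed by the mTORC1 pathway, and plasma cells, which make large amounts of antibody, have a high demand for amino acids. Both genes are known as targets of the amino acid response in which ATF4 takes part, through composite sites of C/EBP and ATF type.

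The sequences just before the annotated starts are shown because the regions at the starts set the 2 genes apart in the values that follow. Each line gives the 250 bases before a start that RefSeq lists on GRCh38.p14, 5′ to 3′ on the strand of the gene, with motif matches in capitals.

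SLC7A5 promoter, chr16:87869508-87869757, minus strand: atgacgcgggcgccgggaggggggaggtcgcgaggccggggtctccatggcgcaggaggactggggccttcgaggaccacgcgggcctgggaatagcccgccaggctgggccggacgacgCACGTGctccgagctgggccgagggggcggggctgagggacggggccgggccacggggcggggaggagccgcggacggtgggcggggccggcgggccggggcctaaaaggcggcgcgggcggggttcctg
SLC3A2 first promoter, chr11:62855859-62856108, plus strand: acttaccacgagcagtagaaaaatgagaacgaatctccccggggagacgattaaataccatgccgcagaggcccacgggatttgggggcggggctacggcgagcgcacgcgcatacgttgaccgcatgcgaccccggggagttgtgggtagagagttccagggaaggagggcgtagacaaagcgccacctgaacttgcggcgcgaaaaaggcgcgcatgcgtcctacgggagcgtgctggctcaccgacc
SLC3A2 inner promoter, chr11:62880646-62880895, plus strand: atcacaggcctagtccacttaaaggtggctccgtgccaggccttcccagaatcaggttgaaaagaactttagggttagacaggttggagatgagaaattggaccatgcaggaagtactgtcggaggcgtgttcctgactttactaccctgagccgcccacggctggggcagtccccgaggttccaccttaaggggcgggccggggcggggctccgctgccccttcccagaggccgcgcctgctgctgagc
SLC3A2 second inner promoter, chr11:62881449-62881698, plus strand: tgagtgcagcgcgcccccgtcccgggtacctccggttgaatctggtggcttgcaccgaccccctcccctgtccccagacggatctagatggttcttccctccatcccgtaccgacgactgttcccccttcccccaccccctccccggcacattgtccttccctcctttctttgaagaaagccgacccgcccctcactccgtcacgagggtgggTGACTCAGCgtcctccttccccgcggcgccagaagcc

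The capitals in the SLC7A5 promoter mark a CACGTG E-box that begins 130 bases before the start, a motif held by 6.34% of 35116 RefSeq promoters of the same length. The capitals before the last SLC3A2 start mark TGACTCAGC, which begins 37 bases before the start. It matches both the AP-1 motif TGANTCA (6.57% of promoters) and the antioxidant response element TGACNNNGC (10.9%), and these matches overlap. Searched on both strands, the composite site TGATGNAA (3.14% of promoters), the cyclic AMP response element TGACGTCA (1.65%) and the NF-kB letters GGGANNTCC (4.03%) had no match in any of the 4 windows. The SLC7A5 window had 79.6% G and C and 34 CpG dinucleotides, against 61.6%, 60.8% and 65.6% and 27, 12 and 19 CpG in the SLC3A2 windows and medians of 58.0% and 11 over all promoters. A match here is a description of letters and not of binding.

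The lists held 220250 to 222779 summits in the knockdown libraries and 225832 to 238246 in the control libraries. The pileup, the number of overlapping tags at a summit, and its local background were worked out from the fold and −log10 p that the authors deposited. The library-wide background pileup was 2.51, 2.15 and 2.51 in knockdown libraries 1, 2 and 3, against 3.19, 2.79 and 3.52 in control libraries 1, 2 and 3. Height means pileup over this background. The median height of the 68145 regions that all 6 libraries list was 14.5 ± 1.23 in knockdown and 22.7 ± 3.68 in control libraries (SD, n = 3 each), so peaks stood lower over background genome-wide in the knockdown group. Scaled height divides the height by that median, so that 1 is a typical shared region of the same library, and it was used unless stated. Without scaling, the log2 ratio over all shared regions had a median of −0.54, and with scaling 0.10. Peaks of −log10 q of at least 2 stood at a start of 6 of 9 plasma cell markers (SDC1, IRF4, PRDM1, XBP1, CD38 and MZB1) in all 6 libraries, and at PAX5, a B cell factor, too. The T cell, NK cell and myeloid markers with a listed start (CD3D, CD2, CD14 and CSF1R) had none in any library. Of the remaining markers, JCHAIN had such a peak in 4 libraries, KRT8, an epithelial gene, in 2 and CD22, a B cell gene, in 1. A lower peak in a pool of cells can mean fewer cells with open DNA or less open DNA per cell, and these cannot be told apart.

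The regions around SLC7A5 mostly stood lower in the knockdown libraries, apart from the region at the gene start, and those around SLC3A2 did not. Of the 83 SLC7A5 regions, 20 were listed in all 6 libraries, called held here, against 18.0% of all regions. There were 2 that had vanished, meaning that no knockdown library listed them and every control library did with a −log10 q of 2 or more, a class that took in 0.858% of all regions. None had appeared in the reverse sense (0.0584% of all regions). The other 61 SLC7A5 regions fell in no class, and 40 of them were listed in a single library. Of the 83, 37 reached a −log10 q of 2 in no library. Of the 39 SLC3A2 regions 17 held, 1 vanished, none appeared and 21 fell in no class, 15 of which were listed in a single library.

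Among the 20 held SLC7A5 regions, 13 had a lower scaled height in every knockdown library than in every control library and 1 a higher one, and without scaling these counts were 19 and 1. Genome-wide, 10.9% of held regions were lower and 21.8% higher in this sense, and 56.5% and 1.41% without scaling. The median ratio of scaled height, knockdown over control, was 0.815 around SLC7A5 with a range of 0.405 to 2.06. Around SLC3A2, 0 of 17 held regions were lower and 6 were higher with a median ratio of 1.09 (0.815 to 1.52), but without scaling 13 were lower and none was higher. By the authors' deposited fold, which sets pileup over local background, 13 SLC7A5 regions were lower and 1 was higher, against 49.4% and 1.46% of held regions genome-wide. Of the 13 regions lower in scaled height, 9 were also apart by the fold, and the groups overlapped at the other 4 (87774565, 87777842, 87809519 and 87853691). For SLC3A2 the fold was lower at 8 regions and higher at 2. Peak width was lower in every knockdown library at 8 of 20 SLC7A5 and 7 of 17 SLC3A2 regions, where 29.6% of all held regions were narrower and 1.22% wider. No held region of either gene was wider in this sense. The members were chosen on this contrast, so the genome-wide shares are given beside the counts and nothing is read from them.

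**Figure D1:**
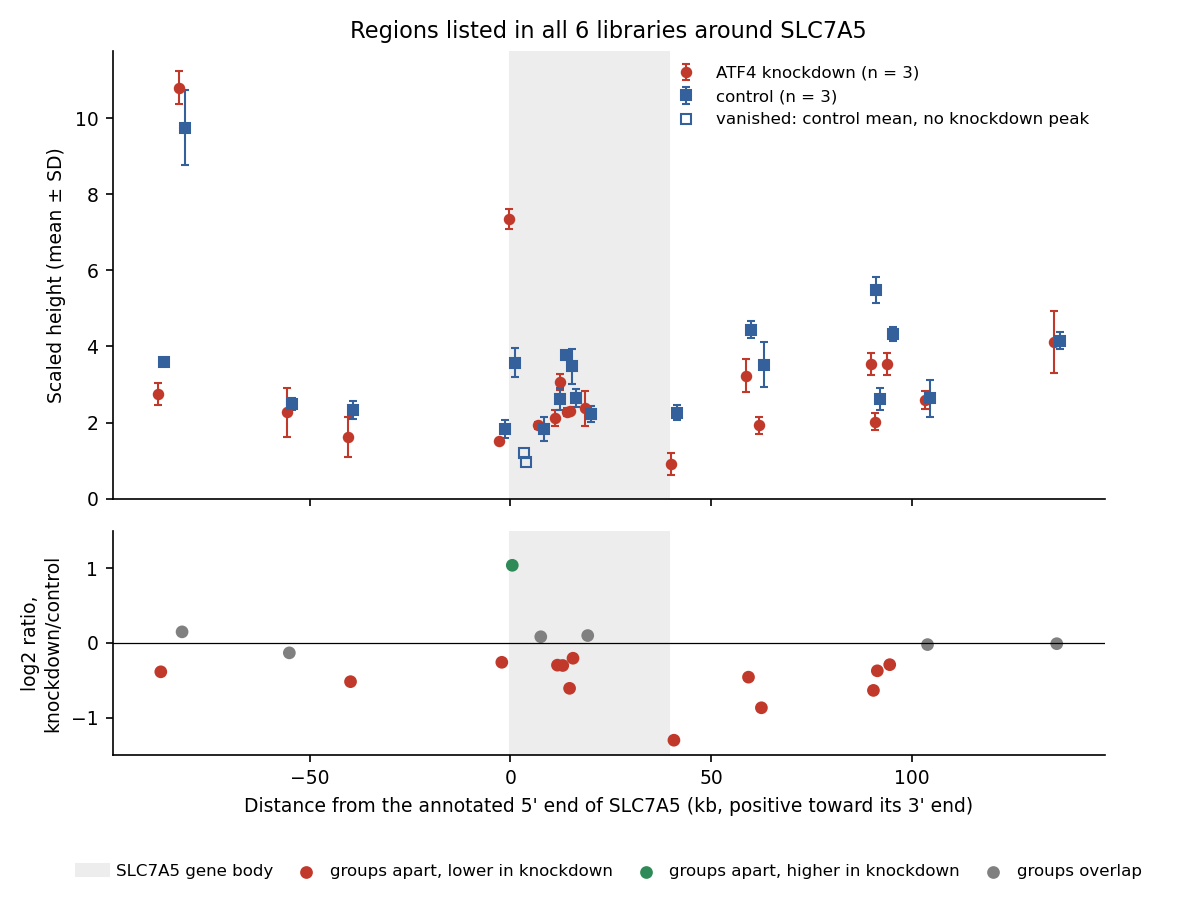
The upper panel plots scaled height (pileup over library background, divided by the median of shared regions; mean ± SD of 3 libraries) of regions listed in all 6 libraries against distance in kb from the annotated start of SLC7A5, and the lower panel their log2 ratio, knockdown over control, with circles for knockdown, squares for control and open squares for 2 vanished regions. The start region stands at 7.36 in knockdown and 3.58 in control libraries, and the points inside the gene and past its 3′ end lie mostly below 0 in the lower panel.

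The region at the start of SLC7A5 (chromosome 16, 87868244 to 87869862) was the 1 held SLC7A5 region whose scaled height was higher in every knockdown library. Its pileup was 248, 240 and 275 tags in knockdown libraries 1, 2 and 3, against 249, 238 and 273 in control libraries 1, 2 and 3. The raw number of tags therefore covered the same range in both groups, with means of 254 ± 18.3 and 253 ± 17.9 (SD, n = 3 each), although the knockdown libraries had the lower background. Height over library background was 98.9, 111 and 110 in the knockdown libraries, against 78.1, 85.2 and 77.5 in the control libraries, without overlap. Scaled height came to 7.52, 7.5 and 7.05 after knockdown, against 3.66, 3.17 and 3.90 in controls, so every knockdown value lay above every control value. The ratio was 2.06 with scaling and 1.33 without it, and the scaled ratio was at percentile 98.0 of held regions and 99.5 of those that hold a protein-coding gene start. Among such start regions 39.2% were higher and 3.04% lower in knockdown libraries. The authors' deposited fold over local background was also apart, at 9.05, 8.73 and 8.83 in knockdown and 7.34, 7.0 and 6.8 in control libraries. Width did not separate the groups, with 1431, 1322 and 1349 bp in knockdown and 995, 1293 and 1444 bp in control libraries. The highest summit lay 12 to 32 bases inside the gene from its listed start in all 6 libraries, next to the promoter sequence printed above. Local background around the start was 11.7 times the library background in the knockdown and 11.1 times in the control libraries.

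Just upstream, the region 1.94 kb before the start (87871444 to 87871883) differed in the opposite direction. It had 51, 50 and 57 tags in the knockdown libraries, against 115, 126 and 147 in the control libraries. Its width was 196, 222 and 188 bp in knockdown and 398, 390 and 438 bp in control libraries, and neither measure overlapped between the groups. Its −log10 q was 4.86, 4.22 and 5.15 in knockdown, against 32.3, 39.1 and 45.2 in control libraries. Scaled height was 1.55, 1.56 and 1.46 in knockdown and 1.69, 1.68 and 2.10 in control libraries. Its ratio of 0.835 was nearer to 1 than that of the widths. The deposited fold was 2.19, 2.10 and 2.14 in knockdown, against 4.00, 4.36 and 4.34 in control libraries, without overlap.

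Inside SLC7A5, 6 regions besides the start region were listed in all 6 libraries, and 4 of them were lower in every knockdown library. These 4 lay together between 11.5 and 15.3 kb from the start. The one with the lowest ratio (87854449 to 87855107) had 79, 70 and 88 tags in the knockdown libraries, against 206, 259 and 276 in the control libraries. Its scaled height was 2.39, 2.19 and 2.26 in knockdown and 3.03, 3.45 and 3.94 in control libraries, a ratio of 0.656, with no overlap. Its neighbours on both sides had ratios of 0.867 (87853691 to 87854159), 0.811 (87855935 to 87857030) and 0.813 (87857636 to 87857964). The highest of the body regions in both groups, 87855935 to 87857030, had 105, 102 and 110 tags in knockdown libraries, against 257, 288 and 260 in control libraries. The innermost region (87850037 to 87850478) and the one nearest the start (87861728 to 87862181) had ratios of 1.07 and 1.06, or 0.691 and 0.688 without scaling, and their scaled heights overlapped between the groups.

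The body regions and the start region can be set against each other within each library, where depth and scaling cancel. Their mean pileup was 31.0, 32.7 and 31.9% of that of the start region in knockdown libraries 1, 2 and 3, against 72.4, 83.8 and 76.0% in control libraries 1, 2 and 3. The groups did not overlap, at 31.9 ± 0.87% and 77.4 ± 5.83% (SD, n = 3 each). This and later shares also depend on the start region, whose scaled height was higher in every knockdown library. An example is the start of the neighbouring gene BANP, with a scaled ratio of 1.11 and overlapping groups. Its tags came to 147 ± 8.96% of the SLC7A5 start region in knockdown and 273 ± 13.7% in control libraries. The difference in shares is thus not one of the body regions alone. In the control libraries the region at 87855935 had about as many tags as the start region (106 ± 13.2%), and in the knockdown libraries 41.6 ± 1.4% of them. Local background moved with the peaks inside the gene. Over the 4 lower body regions it was 10.3 to 11.5 times the library background in knockdown and 17.8 to 19.1 times in control libraries, whereas around the start region and the one before it the knockdown to control ratio was 1.05 and 1.07. Set over that local background, as in the deposited fold, the log2 ratios of the 4 lower body regions in order of coordinate were −0.059, −0.48, −0.18 and −0.21, against −0.21, −0.61, −0.30 and −0.30 for scaled height, and the groups overlapped at the first of them (87853691).

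**Figure D2:**
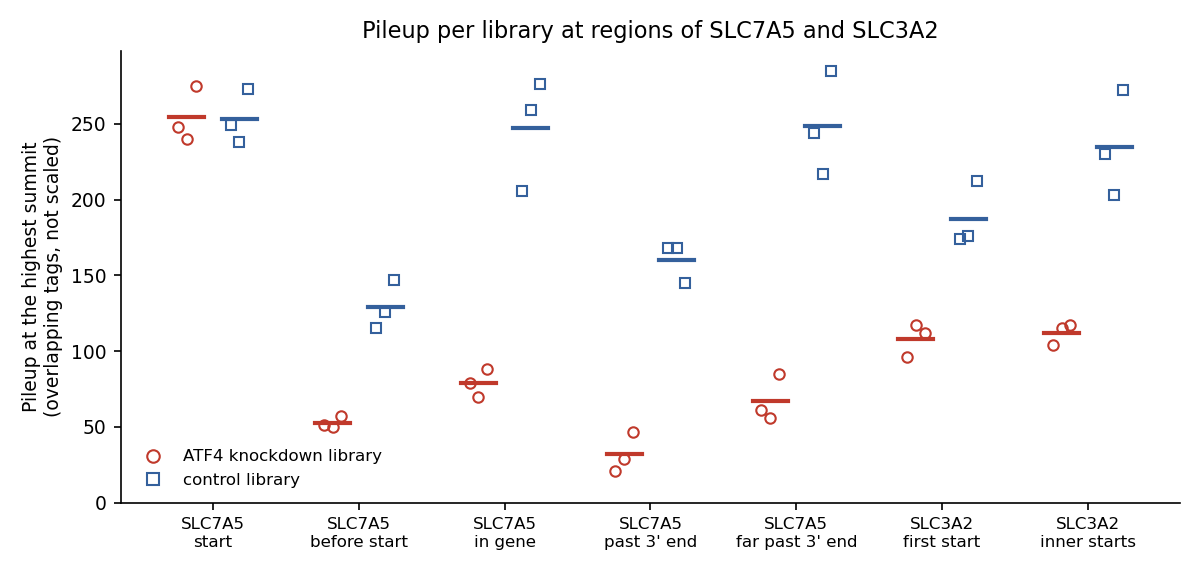
Pileup in overlapping tags at the highest summit, not scaled for depth, for 5 SLC7A5 and 2 SLC3A2 regions, with 1 symbol per library and a bar for the mean of 3. Knockdown and control libraries share the range of 238 to 275 tags at the SLC7A5 start and stand apart at the other 6 regions, with knockdown below control. Genome-wide, 56.5% of held regions were lower in every knockdown library in height over library background without scaling. At both SLC3A2 regions the scaled heights overlapped between the groups.

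Both vanished SLC7A5 regions lay inside the gene, between the start region and the body regions. One, 2.99 kb from the start (87866309 to 87866514), had no listed peak in any knockdown library and 67, 67 and 69 tags in the control libraries. The other, 2.46 kb from the start (87866839 to 87867046), likewise had no peak after knockdown, against 67, 95 and 96 tags in controls. Their control −log10 q was 3.51, 4.20 and 2.10 at the first and 3.15, 13.0 and 8.68 at the second, and their deposited fold 1.58 to 1.87 and 1.73 to 2.51. These were low peaks on high ground, where local background was 12.2 to 12.7 times that of the library. Another region beside them (87867240 to 87867657) had no knockdown peak either, and missed the class only because control library 2 listed it at a −log10 q of 1.1, with 9.74 and 4.47 in control libraries 1 and 3. Farther out, a weak region 10.5 kb before the start (87880022 to 87880469) was listed in the 3 control libraries alone with a highest −log10 q of 3.75. The knockdown libraries needed 6 or 7 tags to list a peak on flat background and the control libraries 7 to 9. On high local background, as at the 2 vanished regions, more tags are needed. At the start region beside them, local background alone was 26.5, 26.6 and 30.3 tags in knockdown libraries 1, 2 and 3. An absent peak therefore shows that no summit passed the caller's limit and not that few or no tags lay there.

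The region with the lowest ratio lay just past the 3′ end of SLC7A5, 0.54 kb beyond the gene (87828068 to 87829483). It had 21, 29 and 47 tags in the knockdown libraries, against 168, 168 and 145 in the control libraries. Peaks there were 242, 715 and 825 bp wide in knockdown and 1402, 1320 and 1293 bp wide in control libraries, with a −log10 q of 2.59, 7.73 and 18.0 against 88.9, 93.3 and 59.2. Every knockdown value of all 3 measures lay below every control value, and knockdown library 1 was the lowest in each. Scaled height was 0.64, 0.91 and 1.21 in knockdown and 2.47, 2.24 and 2.07 in control libraries. The ratio of 0.405 was at percentile 0.222 of all held regions, and it was 0.263 without scaling. Relative to the start region of the same library, its tags came to 8.47, 12.1 and 17.1% in knockdown and 67.5, 70.6 and 53.1% in control libraries. Local background was 3.23 times that of the library in knockdown and 6.75 times in control libraries.

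Further held regions past the 3′ end of SLC7A5 formed 2 groups with lower heights, before the neighbouring gene KLHDC4 was reached. About 20 kb past the gene, the region at 87806424 to 87807533 had scaled heights of 1.85, 1.75 and 2.18 in knockdown, against 3.59, 2.89 and 4.07 in control libraries, a ratio of 0.548. Its neighbour at 87809519 to 87810873 had a ratio of 0.728. About 50 kb past the gene, the region at 87778549 to 87779578 had 3.21, 3.78 and 3.62 after knockdown, against 5.84, 5.49 and 5.16 in controls, a ratio of 0.643. It had more tags than the SLC7A5 start region in the control libraries (155 ± 20.8%) and fewer in the knockdown libraries (48.1 ± 4.70%). Beside it, 87777842 to 87778347 and 87774565 to 87775440 had ratios of 0.772 and 0.817. Over these 5 regions scaled heights did not overlap between the groups, but the deposited fold overlapped at 3 of them (87774565, 87777842 and 87809519), and local background was 6.21 to 7.24 times the library background in knockdown and 11.9 to 13.7 times in control libraries. Of the 2 held regions that touch KLHDC4, the one 63.5 kb from SLC7A5 spans an end of that gene. The other, 96.4 kb away, lies inside it. Their ratios were 0.984 and 0.993, and both overlapped between the groups.

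On the other side of SLC7A5, the 4 held regions beyond the one at 1.94 kb lay in the neighbours CA5A, a mitochondrial carbonic anhydrase gene, and BANP, which encodes a nuclear DNA-binding protein. The BANP start (87950618 to 87952060) was the highest region of the window, at 11.2, 10.3 and 10.9 in knockdown and 10.5, 8.64 and 10.1 in control libraries, and its ratio of 1.11, or 0.716 without scaling, came with overlapping groups. A region in CA5A (87909052 to 87909674) and one in BANP (87956165 to 87957111) were lower in every knockdown library, with ratios of 0.698 and 0.765, and a second CA5A region overlapped (ratio 0.912). Counted by position, the lower regions were 6 of 8 past the 3′ end, 4 of 6 inside the gene and 3 of 5 before the start. Genome-wide, 10.9% of held regions were lower. The gene was chosen on this contrast, so these counts are a description.

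Held regions that hold no gene start differ from start regions genome-wide, so they are also given by height. Among held regions without a protein-coding start, 22.4% of those with a mean control height of 40 to 80 and 18.8% of those of 80 or more were lower in all knockdown libraries. Of the SLC7A5 regions without a listed start, whose mean control heights ran from 40.7 to 125, 13 of 18 (72.2%) were lower. The 18 include the region that spans an end of KLHDC4, whose groups overlapped. Of 9532 protein-coding genes with at least 10 held regions within 100 kb, 32 had a lower median ratio than SLC7A5, and SLC3A2 stood at percentile 56.9. CA5A, whose window overlaps that of SLC7A5, and CCR3 were the only other genes with as high a share of lower regions. SLC7A5 was chosen for this contrast, so its place is a description.

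**Figure D3:**
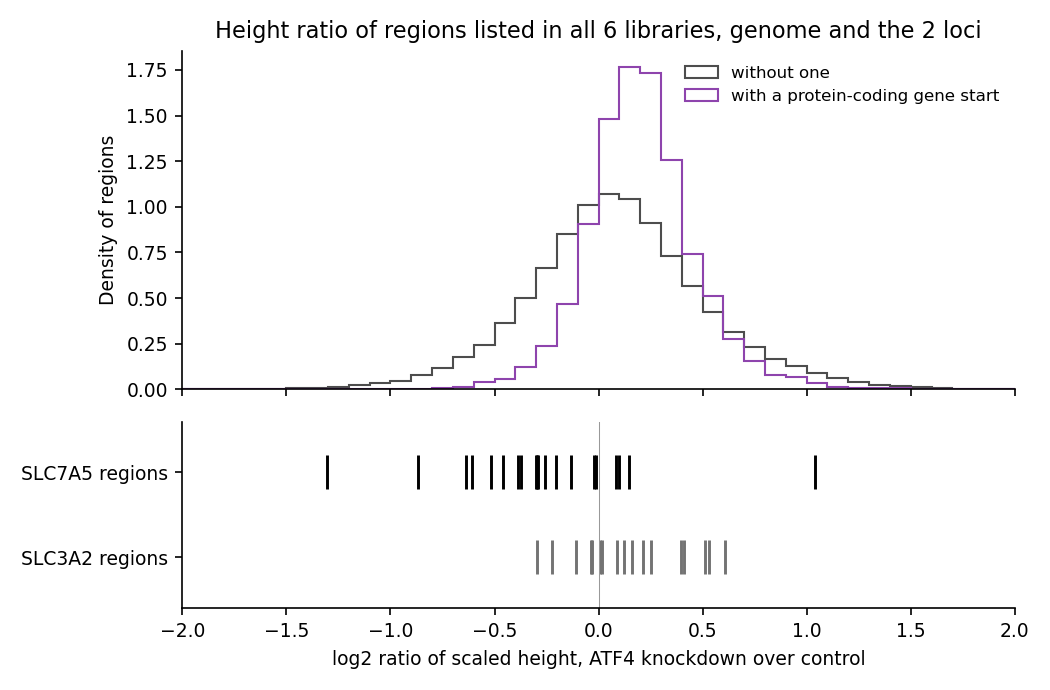
The upper panel shows the density of log2 ratios of scaled height, knockdown over control, for regions listed in all 6 libraries that hold a protein-coding gene start (purple) or none (grey), and the lower panel marks each held SLC7A5 and SLC3A2 region. The SLC7A5 marks spread from a ratio of 0.405 to 2.06, with 16 of 20 below a ratio of 1, and the SLC3A2 marks from 0.815 to 1.52, and without the scaling every ratio is lower.

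The heavy chain gene SLC3A2 had start regions whose scaled heights overlapped between the groups. The region at its first listed start (chromosome 11, 62855411 to 62856455) had 96, 117 and 112 tags in the knockdown libraries, against 174, 176 and 212 in the control libraries. Its scaled height was 2.91, 3.66 and 2.87 in knockdown and 2.56, 2.35 and 3.03 in control libraries, and the groups overlapped (ratio 1.19, and 0.772 without scaling). The summit lay 27 to 82 bases before the start. The region over the 2 inner starts (62880340 to 62882016, starts at 62880896 and 62881699) had 104, 115 and 117 tags after knockdown, against 230, 203 and 272 in controls. Its scaled height of 3.15, 3.59 and 3.00 in knockdown and 3.38, 2.71 and 3.89 in control libraries overlapped as well, a ratio of 0.977 that was 0.637 without scaling. The peak was narrower, at 1457, 1315 and 1233 bp in knockdown and 1643, 1647 and 1639 bp in control libraries. Its summit lay 22 to 45 bases before the start at 62880896, and 825 to 848 bases before the start at 62881699, so the printed AP-1 match was not under the summit. Unlike at SLC7A5, both start regions had fewer raw tags in every knockdown library. Raw tags were lower in general, as the mean library background in knockdown was 0.755 of that in control libraries. Regions with a protein-coding gene start had a median height ratio of 0.735 over that background, without scaling.

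Inside SLC3A2, the region 6.12 kb from the first start (62862224 to 62863141) had 40, 42 and 52 tags in knockdown and 107, 100 and 112 in control libraries. Its scaled height was 1.21, 1.31 and 1.33 in knockdown and 1.57, 1.33 and 1.6 in control libraries, a ratio of 0.856, and the highest knockdown value met the lowest control value. A weaker region beside it (62861194 to 62861530) was listed in 5 libraries, with no peak in knockdown library 1, 19 and 18 tags in knockdown libraries 2 and 3, and 24, 35 and 38 in the control libraries. Before the start lay 2 low regions. The one at 62850254 to 62850921 had scaled heights of 0.73, 0.78 and 0.69 in knockdown and 0.41, 0.57 and 0.56 in control libraries, a ratio of 1.43 that turned to 0.906 without scaling. The other, at 62848854 to 62849258, had a ratio of 0.815 with overlapping groups, and 0.519 without scaling.

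Past the 3′ end of SLC3A2, a low region 0.39 kb beyond the gene (62889252 to 62890548) was much narrower in the knockdown libraries. It was 331, 240 and 310 bp wide in the knockdown libraries, against 937, 1002 and 1098 bp in the control libraries, without overlap. It had 11, 10 and 11 tags in knockdown and 15, 16 and 19 in control libraries, close to the fewest that can be listed. Its scaled height ratio was 1.32, but 0.847 without scaling. Compared with the region past the 3′ end of SLC7A5, which had 160 ± 13.3 tags in the control libraries, this one was a much smaller peak, at 16.7 ± 2.08.

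The higher SLC3A2 regions mostly lay over neighbouring genes, and for none did the knockdown libraries stand apart above the controls without the scaling. The largest ratio was at WDR74, a ribosome assembly gene 13.7 kb before SLC3A2 (62840004 to 62842363), with 4.39, 5.0 and 4.64 in knockdown and 3.00, 2.67 and 3.54 in control libraries. Its ratio of 1.52 was 0.991 without scaling. A region over NXF1, the mRNA export receptor, and STX5 (62804533 to 62807079) had a ratio of 1.44, and one over STX5 and TEX54 (62831194 to 62832776) a ratio of 1.33, which without scaling were 0.941 and 0.856. The vanished SLC3A2 region lay far from the gene, 91.3 kb past it inside SLC22A6, a renal organic anion transporter gene (62980201 to 62980537). It had no listed knockdown peak, against 18, 20 and 14 tags in control libraries at a −log10 q of 6.60, 9.42 and 3.43, on background near that of the library.

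**Figure D4:**
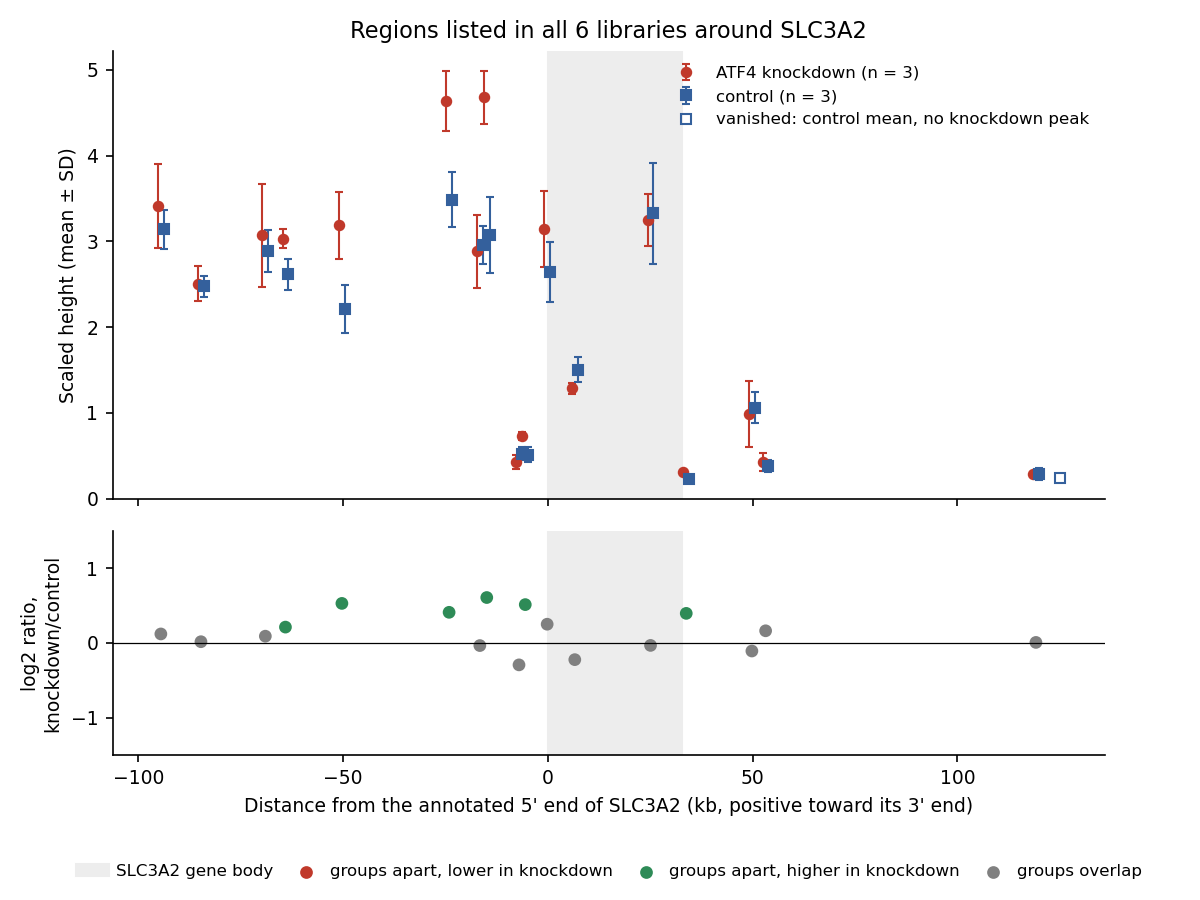
Scaled height (mean ± SD of 3 libraries) and log2 ratio, knockdown over control, of held regions against distance in kb from the first annotated start of SLC3A2, drawn as for SLC7A5. The first start and the inner starts lie close together in both groups, and 6 regions are higher in every knockdown library with scaling and none without it.

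The highest summits of the 6 libraries lay within 50 bases of each other at 14 of 20 held SLC7A5 regions and 9 of 17 held SLC3A2 regions. At the outer limit of the windows, the farthest SLC7A5 region inside lay 96.4 kb from the gene with a −log10 q of 0.634, and the nearest outside 101 kb away with 2.83, each in 1 library. The farthest SLC3A2 region inside lay 95.5 kb away with a −log10 q of 1.02 in 1 library, and the nearest outside, 101 kb away, was listed in all 6 with up to 318.

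Within 10 kb of the ends of SLC7A5, listed peaks covered 2823, 2889 and 2798 bp in the knockdown libraries, against 4929, 4734 and 4824 bp in the control libraries. Each knockdown library was below each control library, with means of 2837 ± 47.0 and 4829 ± 97.6 bp (SD, n = 3 each). Over the whole genome, listed peaks covered 63.5 ± 0.46 Mb in knockdown and 69.3 ± 2.00 Mb in control libraries. Without scaling to these totals, the log2 difference in covered length was −0.73 for SLC7A5. It was negative for 76.5% of 18606 genes, with a median of −0.14. SLC7A5 was chosen for its covered length, so its difference between the groups is a description. The region past the 3′ end made up 37.4% of this difference, at 594 ± 310 bp in knockdown and 1338 ± 56.8 bp in control libraries. The 2 vanished regions made up 8.95 and 9.65%, the region next to them at 87867240 12.3%, the region before the start 10.4% and a weak region near CA5A (87877899 to 87878342) 14.2%. That last one had 352 bp in knockdown library 1, none in knockdown libraries 2 and 3, and 379 to 439 bp in control libraries. The start region covered 1367 ± 56.8 bp in knockdown and 1244 ± 228 bp in control libraries, and these values overlapped.

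**Figure D5:**
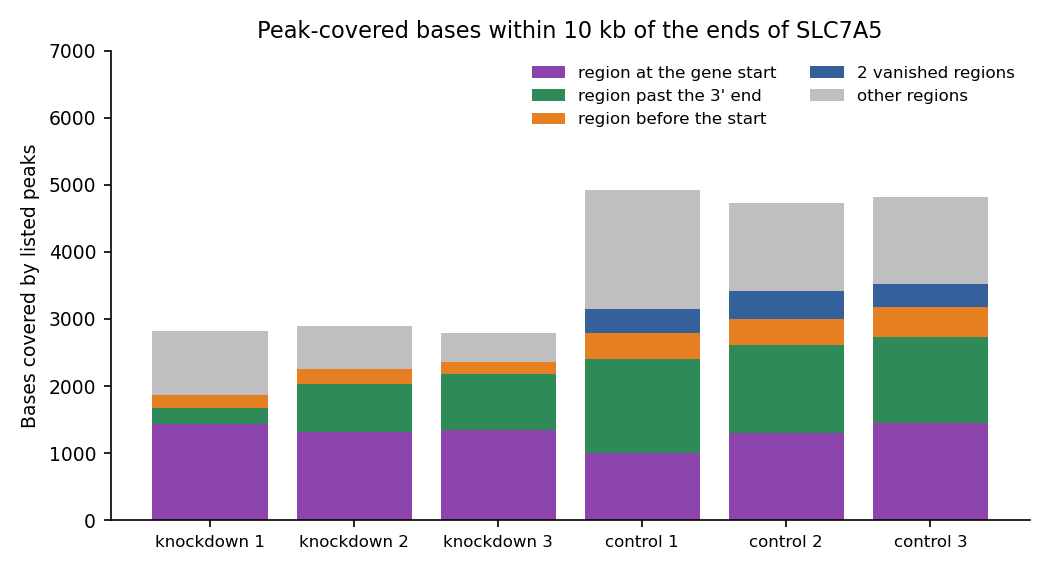
Bases in listed peaks, counted within 10 kb of the ends of SLC7A5, as stacked bars for each library in bp, split into the start region, the region past the 3′ end, the region before the start, the 2 vanished regions and all others. The start region is about as wide in both groups, and the other parts are smaller or missing in the knockdown libraries, whose totals are 2798 to 2889 bp against 4734 to 4929 bp in controls.

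SLC3A2 had 4167, 4804 and 4981 bp in the knockdown libraries, against 6316, 5404 and 5743 bp in the control libraries. The groups did not overlap, at 4651 ± 428 and 5821 ± 461 bp (SD, n = 3 each). Without scaling, the log2 difference was −0.31 for SLC3A2, and it was negative for 76.5% of 18606 genes, with a median of −0.14. The region past the 3′ end made up 61.4% of the SLC3A2 difference in bp and the region over the inner starts 26.3%. The first start region covered 880 ± 76.3 bp in knockdown and 851 ± 39.3 bp in control libraries, with overlapping values. Scaled to the total covered length of each library, the log2 difference was −0.61 for SLC7A5 and −0.19 for SLC3A2. Over the whole window of the gene body with 100 kb on both sides it was −0.12 and −0.14, and within 2 kb of the ends −0.31 and −0.53, where SLC3A2 had the larger difference.

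The other genes of the pathway were taken from a list of 42 genes in 5 roles, of which 40 had peaks in enough libraries to be tested. None changed in covered length at a limma adjusted p under 0.05 in either direction (0.0% of 18606 genes lower and 0.0% higher), and the smallest adjusted p over all genes was 0.0557. At an unadjusted limma p under 0.05, 7 of the 40 were lower and 1 was higher, where 1689 of all genes (9.08%) were lower and 910 (4.89%) higher. The list's median log2 difference was −0.02, against −0.02 for all genes. The smallest p in the list was that of LARS1, the cytosolic leucyl-tRNA synthetase and a leucine sensor, with 1340 ± 182 bp in knockdown and 2173 ± 229 bp in control libraries (SD, n = 3 each) after scaling, a log2 difference of −0.63 (SE 0.13, limma adjusted p = 0.108). SLC6A19, a sodium-coupled carrier of neutral amino acids, followed with 747 ± 501 bp in knockdown and 1976 ± 389 bp in control libraries (log2 difference −1.33, SE 0.35, limma adjusted p = 0.172). SLC38A5, a glutamine importer, had a log2 difference of −0.37 (SE 0.10, limma adjusted p = 0.174). SLC43A1, which encodes the facilitative carrier LAT3, had one of −0.29 (SE 0.10, limma adjusted p = 0.243).

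By role, the 6 tested relatives of the 2 chains, among them SLC7A8 (LAT2) and SLC7A11 (the cystine carrier xCT), had a median log2 difference of −0.08, with 4 means lower, 2 higher and none at an unadjusted p under 0.05. The 8 other carriers of large neutral amino acids had a median of −0.01 and the 5 importers of exchanged amino acids 0.06. The 5 partners of the heavy chain or transporter, which include ITGB1 and BSG, had a median of −0.10, and the 16 genes of leucine sensing and use 0.03. SLC1A5, which imports the glutamine that LAT1 exchanges, had a log2 difference of 0.15 (SE 0.10, limma adjusted p = 0.539), and MTOR one of 0.21 (SE 0.10, limma adjusted p = 0.423).

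The genes whose 6 scaled and centred log2 values were most like those of SLC7A5 were ATP7A, SUCLG1, OCA2, PGAP4 and PNMA6A, with root mean square differences of 0.065 to 0.075 among 15269 genes with at least 1000 covered bases on average. For SLC3A2 the closest were IL2RA, KLHL15 and PUSL1, at 0.012 to 0.022. The measure rests on 6 libraries in 2 groups, so it mainly picks genes with a similar difference between the groups, such as −0.58 at ATP7A and −0.20 at IL2RA.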

How the data were processed

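Peaks were listed separately for 6 ATAC-seq libraries, called with MACS2 against hg38, per the submitters' processing notes. For the MACS2 version, the aligner, read filters and any transposase shift, nothing is given in the sources used here. Each deposited list gives positions and, per summit, a score, a fold enrichment (the ratio of pileup to local background, each with 1 added) and −log10 p and −log10 q values of the caller. The deposited score was used only to check the columns.

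Pileup and background were worked out from the fold and −log10 p that the authors deposited, to within 0.01 on the −log10 scale, for 100% of summits. The commonest local background served as a library's depth, 2.15 to 3.52. Tags come from amplified fragments and are not independent molecules. Peaks overlapping by 1 bp or more were merged over all libraries. Regions were classed by presence (−log10 q of 2 or more), scaled height and width as in the text. Gene coordinates, starts and promoters came from RefSeq tables on GRCh38.p14. Exons and introns were not told apart.

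For each protein-coding gene, bases covered within 10 kb of either end were scaled to the library's total, taken as log2(value + 200 bp) and, where covered in at least 3 libraries, tested with limma 3.58.1 in R 4.3.3 (trend and robust settings, Benjamini-Hochberg adjustment over all genes, threshold 0.05). Differences on this scale understate those of genes with little covered DNA. Regions were processed in Python 3.11.15 with NumPy 2.4.6, pandas 2.3.3 and SciPy 1.17.1, and figures drawn with matplotlib 3.10.9. The limma step was tested on simulated data.

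The members and lists were chosen with earlier results of these data known. Named regions are those that touch either gene or lie within 10 kb of it with a −log10 q of at least 10 in any library, the vanished ones, and the 3 highest, 3 with the lowest and 3 with the highest ratios, groups apart, of each window. Named pathway genes are the 4 with the smallest p. Further regions, and SLC1A5, MTOR, SLC7A8, SLC7A11, ITGB1 and BSG, were named after their values were seen. Alternatives covered peak thresholds, merging, overlap, window, scaling, pseudocount, the gene filter, a replicate block and each library left out.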

Additional observations from a re-analysis of the deposited data

How the results depend on the processing

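Around SLC7A5, 13 lower of 20 held regions became 6 of 9 with a window of 10 kb, a window of 50 kb held 12, and leaving out 1 library gave 12 to 14 lower. With 1 library left out, 13.6 to 15.6% of held regions were lower genome-wide and 26.3 to 30.0% higher. Higher regions numbered 1 to 3 with a library left out (2 without knockdown library 1, 3 without knockdown library 2 or control library 1). Vanished SLC7A5 regions numbered 2 to 4 with a library left out (4 without control library 2), where 1.19 to 1.53% of all regions vanished. With peaks of −log10 q of at least 5, 1 of 27 vanished, against 6.57% of all regions. Around SLC3A2, a window of 10 kb left 6 held, 2 higher and 0 vanished, and a window of 50 kb 0 vanished. Presence only where peaks cover 0.5 of a region gave 3 vanished of 39, where 1.76% of all regions vanished. No SLC3A2 region was lower, but 13 were without scaling, 1 with a −log10 q of at least 5, with merging within 100 bp or with that rule, and 1 or 2 with any single library left out. The genome-wide shares lower were 56.5% without scaling, 11.1% with a −log10 q of at least 5, 11.2% with merging and 10.6% with that rule. Without scaling none was higher, and the log2 ratios of the SLC3A2 regions at 62804533, 62831194, 62840004 and 62850254 turned to −0.088, −0.22, −0.013 and −0.14. With the deposited fold those at 62831194 and 62850254 were −0.072 and −0.045. With the deposited fold, chosen after seeing the data, 8 SLC3A2 regions were lower and 2 higher. Of 160 recomputed log2 ratios of 20 named regions, 124 stayed within 1 SD. The sign turned in the 6 given above, where the groups had been apart, and in 11 more at 5 regions whose groups overlapped. Among these, leaving out 1 library turned the sign at 87850037 (−0.039 without knockdown library 2), 87861728 (−0.043 without control library 2) and 62880340 (0.019 without knockdown library 3 and 0.078 without control library 3).

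Covered length at SLC7A5 differed by −0.31 (2 kb), −0.24 (50 kb), −0.73 (no scaling), −0.39 (−log10 q of at least 2), −0.40 (at least 5) and −0.12 (gene body with 100 kb), against −0.61, and by −0.63 to −0.58 with a library left out. At SLC3A2 it was −0.53 (2 kb), −0.31 (no scaling) and −0.010 (−log10 q of at least 5), against −0.19, and −0.25 to −0.12 with a library left out. Genes lower and higher past the limma threshold, 0 and 0 otherwise, numbered 2 and 0 (2 kb), 383 and 428 (50 kb), 649 and 44 (no scaling), 1 and 0 (−log10 q of at least 2), 545 and 5285 (at least 5), and 5 and 1 (pseudocount of 1000 bp). For the pathway list these were 2 and 0 (50 kb), 4 and 0 (no scaling) and 2 and 13 (−log10 q of at least 5). The cause of these moves was not tested. Same-numbered replicates did not deviate together (correlations 0.016, 0.001 and 0.025). The labels do not say whether the numbers pair the libraries, and these were treated as unpaired. A replicate block gave 0 genes lower and 0 higher. Peak lists hold no value where no peak was listed, and the part of depth in missing peaks was not tested.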
